A study of Drosophila melanogaster with 3 samples.

Results

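The X chromosome of Drosophila melanogaster carried 456 of the 2397 optimal peaks of the transcription factor HLHm7 and 4140 of the 30000 regions in the pooled list behind them, on genome build dm6. Members were taken by chromosome alone: a region counted if its line names X. HLHm7 is the product of E(spl)m7-HLH, and its binding was mapped by chromatin immunoprecipitation and sequencing (ChIP-seq) with an antibody against GFP. The single group consisted of 3 biological replicates of whole embryos, 0 to 16 h old, pooled male and female, from a transgenic line with GFP at the C-terminus of HLHm7; what drives the transgene is not given in the sources used here. Replicates 1, 2 and 3 had 4095, 4172 and 4327 X regions among the 30000 of their own lists. An optimal peak is a region that passed the authors' test of reproducibility, and the optimal peaks are the 2397 regions of the pooled list with the highest signal. The pooled list is described as peaks and background, given as input to that test. Its regions outside the optimal set are called weak regions here and need not be binding sites. How many of them are background was not tested. Signal is the authors' value for a region, has no stated scale and serves here only to rank regions within a list. The number of reads is unknown, since the lists carry none. There was no second condition to compare, so the X was set against the large autosomal arms 2L, 3L and 3R, which together carried 1504 optimal peaks and 19948 pooled regions.

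E(spl) proteins are basic helix-loop-helix repressors that Notch signalling switches on, and they act with the corepressor Groucho against proneural genes such as those of the achaete-scute complex, which lies on the X. The X also holds the gene of the Notch receptor itself. Females have a pair of X chromosomes and males a single one, and in males the dosage compensation complex, built around the roX RNAs, raises transcription along the X. In a pool of both sexes X sequence is therefore present in fewer copies than autosomal sequence; that ratio was not measured here, and reads of the control were not analysed here.

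The strongest X peaks are shown first as sequence, because they are the sites with the most signal on this chromosome. Each line gives the summit base with 50 bp to either side, plus strand, dm6, for the 6 highest-signal X peaks that had a top region in all 3 replicates and touched no annotated untranslated region. They lie at chrX:2137297-2137397 (ph-p), chrX:12751350-12751450 and chrX:12752314-12752414 (both nearest to CG4004), chrX:4910326-4910426 (CG32772), chrX:2297686-2297786 (Raf) and chrX:3742192-3742292 (Tlk). None of the 8 motifs searched below occurs in them, so none of their letters are in capitals.
ph-p: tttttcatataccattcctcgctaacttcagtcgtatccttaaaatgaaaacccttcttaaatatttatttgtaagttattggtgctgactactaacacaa
CG4004, higher peak: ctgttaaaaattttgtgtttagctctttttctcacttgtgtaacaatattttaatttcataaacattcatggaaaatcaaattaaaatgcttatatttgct
CG4004, lower peak: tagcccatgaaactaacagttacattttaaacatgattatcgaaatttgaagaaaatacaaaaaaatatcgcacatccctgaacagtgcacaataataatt
CG32772: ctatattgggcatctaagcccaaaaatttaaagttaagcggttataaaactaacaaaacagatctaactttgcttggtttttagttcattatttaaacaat
Raf: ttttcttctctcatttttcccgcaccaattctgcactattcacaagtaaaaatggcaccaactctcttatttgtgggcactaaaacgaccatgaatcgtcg
Tlk: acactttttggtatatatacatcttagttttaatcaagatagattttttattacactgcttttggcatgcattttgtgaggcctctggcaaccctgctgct

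The highest signal on the X was at Ugalt (FBgn0024994), which encodes a UDP-galactose transporter. That peak (2703694 to 2704076) had a signal of 1398 and rank 4 of 2397, with its summit 31 bp upstream of the transcription start site (TSS), and ranked 5, 4 and 3 in replicates 1, 2 and 3. The peak at ph-p (FBgn0004861), a gene of the Polycomb group, ranked 6, with a signal of 1285 and ranks of 7, 8 and 2 in the replicates. Both sites were thus among the 8 strongest regions of every replicate. The pair of intergenic peaks 5083 and 6047 bp downstream of the TSS of CG4004 had signals of 1088 and 825 and ranked from 12 to 33 in the replicates. In introns, the strongest peaks were at CG32772 (772), at Raf, the kinase that links Ras to the MAP kinase cascade (708, rank 40; ranks 63, 32 and 36), and at Tlk, a kinase gene with a role in chromatin (683, rank 43; ranks 40, 54 and 32). Atf3, which encodes a bZIP transcription factor, followed with a promoter peak (680; ranks 35, 53 and 50), and NFAT, a gene of the NFAT transcription factor family, with a pair of intron peaks (622 and 475).

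The other peaks of the first 20 in all 3 top lists were nearest to MFS10 (604), CG3726 (586), CG3149 (563), the tyrosine phosphatase gene Ptpmeg2 (522), dnc, which encodes a cAMP phosphodiesterase (506), CG17896 (502), norpA, the phospholipase C of phototransduction (490), CG5541 (467), TRAM (451) and LPCAT (432). The CG5541 peak lay in an intron of hiw. Of the 20 summits, 9 were in introns, 7 were within 500 bp of a TSS and 4 were intergenic. The lowest ranks came from replicate 3, with 167 for the second NFAT peak, 186 for the CG5541 peak and 228 for TRAM. All of these were still well inside the top 2397.

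**Figure D1:**
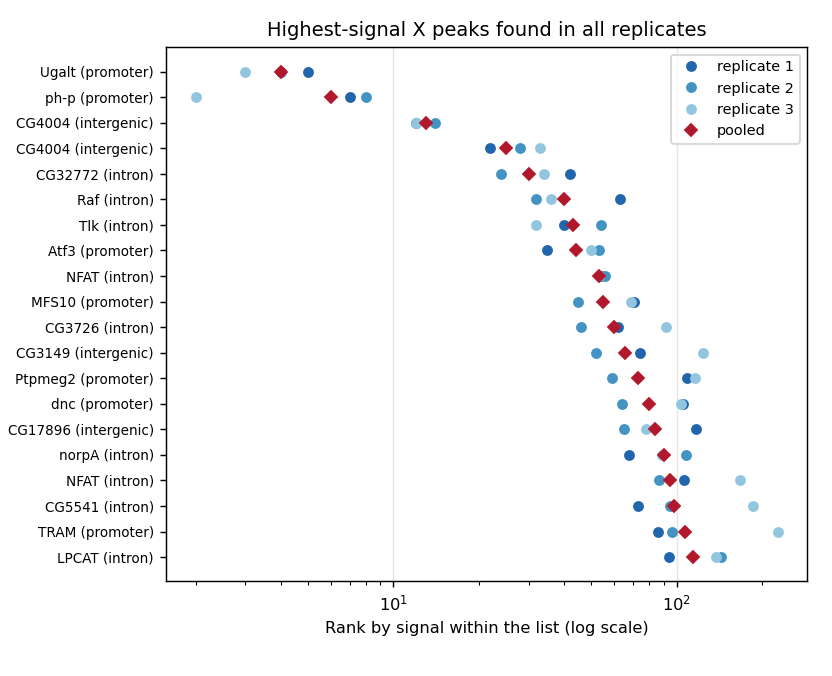
Rank by signal (log scale, 1 is highest) of the 20 strongest X peaks with a top region in all 3 replicates; diamonds are pooled ranks and circles the replicates. The Ugalt and ph-p peaks stay within rank 8 in every list, and the ranks of TRAM run from 86 in replicate 1 to 228 in replicate 3.

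The X was rich in optimal peaks relative to its weak regions and its genes, and not detectably so relative to its length. It held 23.3% of the optimal peaks on the 4 arms (456 of 1960; 95% Wilson interval 21.4 to 25.2%), against 16.6% of the pooled regions that stayed outside the optimal set, a ratio of 1.40 (two-sided Fisher's exact test, adjusted p = 2.90e-12). Its share of protein-coding genes was 19.9% (ratio 1.17; exact binomial test, adjusted p = 5.88e-04). Its share of TSS positions was 21.6% (ratio 1.08, adjusted exact p = 0.0991) and its share of sequence 22.0% (ratio 1.06, adjusted p = 0.164). When only peaks found in the top lists of both replicates 1 and 2 were used, the last 2 ratios were 1.14 and 1.12 and passed (adjusted exact p = 0.0133 and 0.0235). Sequence lengths are of whole arms and include long stretches without an optimal peak, given below. These stretches take up more of the autosomal arms than of the X, which raises the ratio to length. P-values are Benjamini-Hochberg adjusted over the 4 baselines. Intervals and p-values here cover counting error only, since regions and genes are not replicates.

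Seen from the pooled list, 456 of 4140 X regions were optimal, or 11.0% (10.1 to 12.0%), against 1504 of 19948 regions on 2L, 3L and 3R, or 7.54% (7.18 to 7.91%); over the whole genome the share was 7.99%. The odds ratio was 1.52 (Fisher's exact p = 7.24e-13). Each autosomal arm was lower than the X: 7.98% on 2L, 7.45% on 3L and 7.29% on 3R (adjusted exact p = 4.22e-07, 6.56e-10 and 3.39e-11). Per length, the arms differed mainly in the weak regions. Optimal peaks came to 19.4 per Mb on the X and 19.1, 17.5 and 17.6 per Mb on 2L, 3L and 3R, while regions outside the optimal set came to 156 per Mb on the X and 220, 217 and 223 per Mb on the same arms. These lengths are of whole arms. No optimal peak lay on 2L from 22000001 on, on 3L from 23000001 on or on 3R up to 4000000. On the X, 2 lay from 22000001 to 23000000 and none beyond. Such stretches thus take up more of each autosomal arm than of the X, and lower the autosomal rates of optimal peaks more. Rates without them were not computed, so no order of the arms in optimal peaks per length is drawn from these values. Per 100 protein-coding genes the X had 20.8 optimal peaks, against 16.9, 17.9 and 16.5, and 168 other regions, against 195, 223 and 210. On the older build dm3 the X held 23.1% of the optimal peaks of the 4 arms and 16.1% of the regions outside (ratio 1.43, Fisher's exact p = 2.34e-13).

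**Figure D2:**
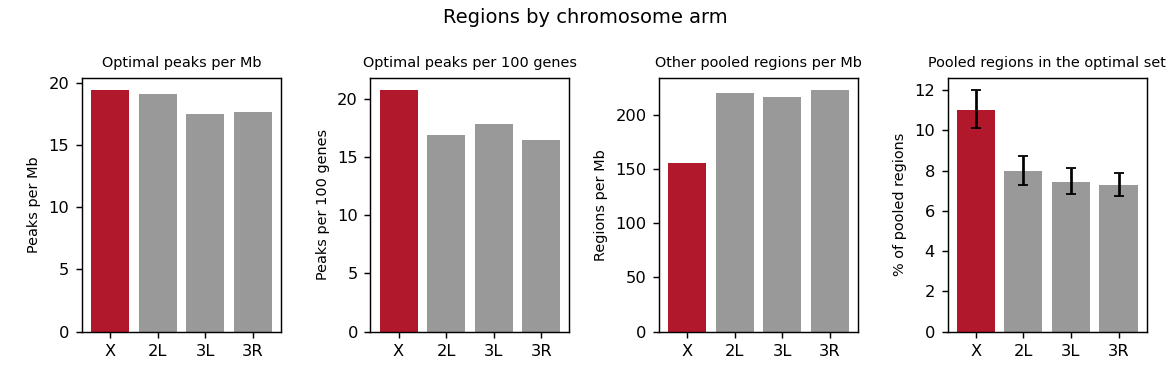
Optimal peaks per Mb and per 100 protein-coding genes, other pooled regions per Mb, and the percentage of pooled regions in the optimal set (error bars, 95% Wilson intervals), for X (red) and for 2L, 3L and 3R (grey). The X has 20.8 optimal peaks per 100 genes and 156 other regions per Mb, against 217 to 223 on the autosomal arms.

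Each replicate on its own had a higher X share among its strong regions. Among the 2397 highest-signal regions of a replicate, the X share of the 4 arms was 22.1, 22.5 and 21.9% in replicates 1, 2 and 3, and among the regions below it was 16.5, 16.9 and 17.4%. The difference averaged 5.27 ± 0.700 percentage points (SD, n = 3) and was positive in all 3 replicates. The exact sign permutation test gave p = 0.25, the smallest that 3 replicates allow. With the 1000 highest regions of each replicate the difference averaged 5.77 ± 0.964 points, and with the 5000 highest it averaged 2.13 ± 0.672 points (1.37, 2.42 and 2.61 in replicates 1, 2 and 3). Along the ranks the share was not a slope. It was 22.9% in pooled ranks 1 to 500, 23.7% in 501 to 1000 and 23.3% in 1001 to 2397. It was 18.0% in ranks 2398 to 5000, 15.5% in 5001 to 10000, 15.4% in 10001 to 20000 and 18.1% in 20001 to 30000. In each replicate, too, every band above rank 2397 had a higher X share than every band below it.

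**Figure D3:**
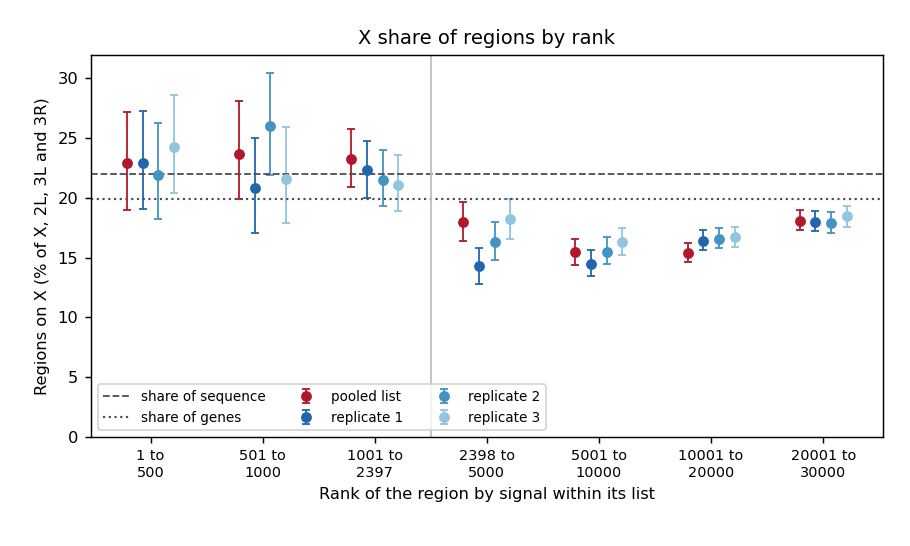
X share of the regions on X, 2L, 3L and 3R (%), in bands of rank by signal, for the pooled list and the 3 replicates; error bars are 95% Wilson intervals, the horizontal lines are the X share of sequence and of protein-coding genes, and the vertical line is rank 2397. Shares lie from 20.8 to 26.0% above that rank and from 14.3 to 18.5% below it.

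Within the optimal set no difference in rank between X peaks and the others was detected. Ranks 1 to 1198 of the 2397 held 48.7% of X peaks (222 of 456; interval 44.1 to 53.3%) and 50.2% of peaks on 2L, 3L and 3R (47.7 to 52.7%; Fisher's exact p = 0.593), and ranks 1 to 599 held 23.0 and 25.1% (exact p = 0.386). Leaving out replicate 1, 2 or 3 gave differences in the share in ranks 1 to 1198 of -2.68, -2.75 and -5.74 percentage points (exact p = 0.364, 0.349 and 0.0514), against -1.52 with all peaks. The median rank was 1230 on the X and 1194 on the other arms. In the replicates' own top lists ranks 1 to 1198 held 50.9, 52.3 and 53.0% of X regions, against 49.2, 48.9 and 49.2% of those on the other arms. Of the 25, 50, 100 and 200 strongest optimal peaks of the genome, 4, 8, 18 and 37 lay on the X.

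Where peaks lay in relation to genes did differ. Nearly as many X peaks as not were intronic, and fewer were intergenic or at promoters. Introns, away from any protein-coding TSS by more than 500 bp, held 223 X summits, or 48.9% (44.3 to 53.5%). On 2L, 3L and 3R introns held 35.2% (32.9 to 37.7%) of summits (odds ratio 1.76, Fisher's exact test, adjusted p = 1.32e-06 over 6 classes). Intergenic sequence held 44, or 9.65%, against 17.0% (adjusted exact p = 3.10e-04), a difference that did not pass against 3R alone (12.1%, adjusted p = 0.457). Promoters, within 500 bp of a TSS, held 178, or 39.0%, against 46.1% (adjusted exact p = 0.0168). That call was not made against 2L or 3L alone (46.3 and 43.6%, adjusted exact p = 0.0629 and 0.249), nor with promoters taken as 1 kb to either side (50.7%, against 55.7%, adjusted p = 0.121). Untranslated regions and coding exons beyond the promoter window held 4, 6 and 1 X summits (5' untranslated, 3' untranslated, coding) and did not pass the test. In replicates 1, 2 and 3 the intron share was 45.6, 50 and 48.1% for X regions, against 32.8, 35.1 and 35.2% for the other arms. The difference averaged 13.5 ± 1.22 percentage points (SD, n = 3). That for promoters averaged -6.36 ± 0.720 and that for intergenic sequence -7.48 ± 1.36 points, each with the same sign in all 3 replicates (exact permutation p = 0.25).

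The make-up of the X sequence differs much less. Introns as counted here take 41.2% of the X and 39.4% of the other arms, promoters 11.0 and 11.3%, and intergenic sequence 26.8 and 30.6%. Per Mb of intron there were 23.0 X peaks, against 16.1 on the other arms (ratio 1.43, exact binomial test, adjusted p = 3.23e-05). Per Mb of promoter window the numbers were 68.6 and 73.2 (ratio 0.938, adjusted exact p = 0.458), so per length promoters did not differ detectably. Per Mb of intergenic sequence they were 6.98 and 9.96 (ratio 0.701, adjusted exact p = 0.0437). These rates, too, use whole arms with the stretches that hold no optimal peak, which are longer on the other arms. The weak regions of the X did not share this pattern in full. Coding exons held 22.5% of weak X regions and 23.7% of those on the other arms, against 0.219 and 0.465% of optimal peaks. Outside the optimal set promoters held 22.6% of X regions, against 18.5% on the other arms, so the order was the opposite of that among optimal peaks (ratio of odds ratios 0.583, 95% Wald interval 0.463 to 0.734 in a logistic model with the interaction of arm and set). Introns held 35.6 and 31.6% of the weak regions, a smaller difference than among optimal peaks (ratio of odds ratios 1.47, interval 1.17 to 1.84). For intergenic sequence, with 15.4 and 22.8%, the ratio was 0.848 and its interval included 1 (0.596 to 1.21). The first 2 of these interactions passed after adjustment and the last did not.

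**Figure D4:**
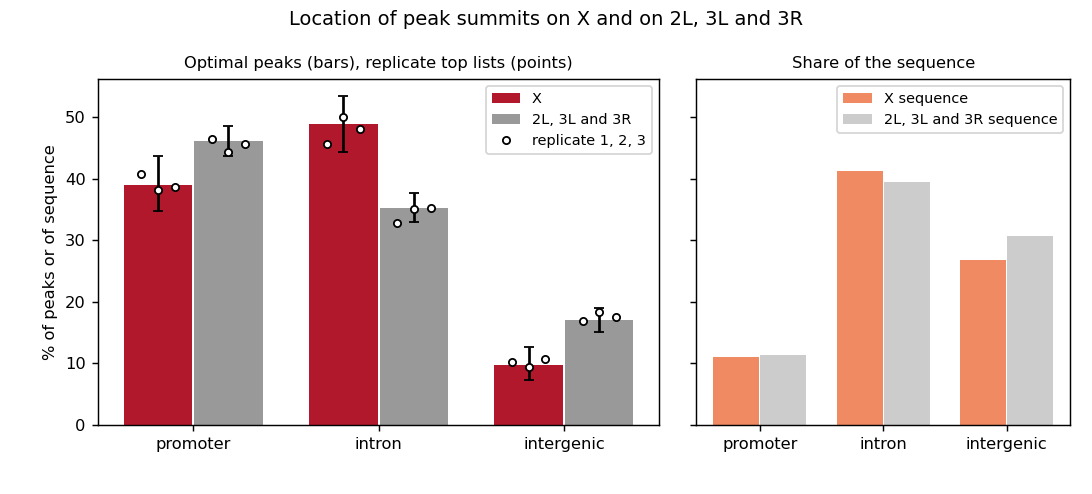
Left, share of peak summits in promoters (within 500 bp of a TSS), introns and intergenic sequence for X (red) and for 2L, 3L and 3R (grey); bars are optimal peaks with 95% Wilson intervals and circles the top lists of replicates 1, 2 and 3. Right, the share of sequence in each class. Introns hold 48.9% of X peaks, against 35.2% on the other arms, and 41.2% of X sequence, against 39.4%.

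Among intron peaks, no difference of the X in rank or in distance from genes' starts was detected. Ranks 1 to 1198 held 49.8% of those on the X, against 49.4% of intron peaks on the other arms (Fisher's exact p = 0.937). Of the X intron peaks 30.9% lay over 5 kb from any protein-coding TSS, against 34.7% (exact p = 0.353). They were found within 146 X genes, 6.65% of all X genes, against 381 genes or 4.32% on the other arms (odds ratio 1.58, Fisher's exact p = 1.21e-05). Overlapping genes that share a summit were each counted. X genes were also longer (median 2521 bp, against 2080 bp), and the part of gene length in this was not tested. A few genes held many: 72 of the 223 (32.3%) lay in 15 genes with 4 or more peaks. When the peaks inside such genes were left out on every arm (15 genes on the X and 27 on the others), an alternative added after seeing the data, introns held 41.4% of 365 X peaks and 31.3% of 1391 others (adjusted exact p = 0.00221). Promoters then held 44.1 and 49.0%, which no longer passed (adjusted exact p = 0.150), and intergenic sequence 12.1 and 18.3% (adjusted exact p = 0.0142). When neighbouring peaks were reduced to the strongest in any 20 kb, also an alternative added after seeing the data, introns held 46.6% of 266 X peaks and 33.5% of 871 others (adjusted exact p = 8.96e-04).

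The share of genes with a peak was close to that of the other arms, and no difference was detected. An optimal summit in the gene or up to 2 kb upstream was found for 401 of 2196 X genes, or 18.3% (16.7 to 19.9%), against 17.6% (16.8 to 18.4%) of 8817 genes on 2L, 3L and 3R (Fisher's exact p = 0.453). In the replicates' top lists the share of X genes with a region was 17.4, 17.8 and 17.3%, against 17.8, 16.8 and 17.8%, so the sign varied. Assignment of every peak to its closest TSS gave 15.1 and 13.4% (exact p = 0.0377), and counting genes by a summit at most 1 kb from their TSS gave 12.0 and 13.0% (exact p = 0.239). Among the genes with a peak, more X genes had several: 99 of 401 (24.7%) had 2 or more, against 286 of 1549 (18.5%) (odds ratio 1.45, Fisher's exact p = 0.00605). Genes that overlap or adjoin can share peaks, and each was counted. CG42354 and CG42353, for example, have the same span and 3 peaks each. The tests of genes treat such genes as independent, which they are not. The median length was 2521 bp for X genes and 2080 bp for the others, and the part of gene length in this was not tested. Among genes over 4999 bp 36.0% of X genes had a peak, against 31.7%. In every shorter class the X share was the lower. It was 5.86%, against 8.02%, among genes up to 1186 bp, and 10.4%, against 13.4%, in the class up to 2173 bp. In the class up to 4999 bp it was 15.1%, against 18.2%. None of 4 length classes passed (adjusted exact p from 0.104 to 0.124).

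The X genes with most peaks, named after the counts were seen, were CG1677 with 12, Raf with 11, kirre, a cell adhesion gene of myoblast fusion, with 10, Hr4, which encodes a nuclear receptor, with 9, and CHES-1-like, a forkhead factor gene, with 7. On the other arms the highest number was 8. These are counts of listed peaks, which can overlap. The Raf peaks at 2296065 to 2296448 and 2296264 to 2296647 do, and both match the same regions in replicates 1 and 3 (ranks 460 and 401). CG1677 spans 124709 bp and encloses other genes, and it also makes up most of the densest 100 kb of the X, 7242089 to 7342088, which held 13 peaks. Of these, 10 were in introns, 2 at promoters and 1 between genes. The nearest TSSs were those of Cph, CG2059, unc-119, brk, Dok, CG42780 and CBP, and the signals ran from 95.9 at CG42780 to 419 at CBP (rank 118; replicate ranks 112, 139 and 155). Of the 13 peaks, 9 had a top region in all 3 replicates. Over whole 1 Mb bins the X had from 2 to 41 peaks with a median of 20, and the other arms from 0 to 38 with a median of 19. The highest X bin, 2000001 to 3000000, contains Ugalt, ph-p and Raf. The lowest is next to the centromere, where no summit fell for 1202 kb (21631729 to 22833697).

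In how often peaks were found again in the replicates, no difference of the X passed the test with all 3 replicates. A top region in all 3 replicates, with summits within 200 bp, was found for 286 of 456 X peaks, or 62.7% (58.2 to 67.0%), against 59.5% (57.0 to 62.0%; Fisher's exact p = 0.230). For replicates 1 and 2 alone the shares were 72.8 and 68.0% (unadjusted exact p = 0.0495). For replicates 2 and 3 they were 70.2 and 69.0% (exact p = 0.685), and for replicates 1 and 3 68.2 and 66.6% (exact p = 0.532). Replicates 1, 2 and 3 had 81.4, 86.2 and 80.3% of the X peaks in their top lists, against 79.7, 83.0 and 80.6% of the others. In the full lists 449 X peaks (98.5%) were present in every replicate, against 97.3%. The 7 that were not lay nearest to fs(1)h, CG17754, mthl1, dlg1, PIG-Q, sbm and CG42780, with signals from 95.9 to 128; they are named because they are few.

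Gene lists of the X were read against the 18.3% of all X genes with a peak (17.6% on the other arms). Over the 12 lists 33 genes had a peak, 28.7% of all members; the lists were chosen with earlier results known, so these counts describe their members only. Proneural genes, the classical targets of E(spl) repressors, had no optimal peak: ac, sc, l(1)sc and ase were 0 of 4. Weak regions of the pooled list were present at l(1)sc (rank 28494) and ase (rank 20858) and not at ac or sc. The optimal peak nearest to the starts of ac, sc and l(1)sc was chrX:362112-362495 (signal 114, rank 1663; replicate ranks 1593, 1678 and 2422), 7.73 kb from the start of ac and thus outside the 2 kb window. It lay in an intron of CG32816, whose span encloses all 4 genes, and its nearest TSS was that of y.

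Of 8 Notch pathway genes 4 had a peak. The one in N, which encodes the Notch receptor (FBgn0004647; 3162388 to 3162771), lay in an intron, 27710 bp downstream of the N TSS and nearest to the TSS of CG18508, with a signal of 255, rank 388, and ranks of 433, 369 and 364 in replicates 1, 2 and 3. Smr, a corepressor gene, had 2 peaks, the higher in an intron with a signal of 243 (rank 420; ranks 320, 630 and 317). The peak upstream of nej, which encodes the coactivator CBP/p300, had a signal of 182 (rank 761; ranks 1001, 1216 and 437). The one counted for dx, which encodes Deltex, lay 4 bp upstream of the TSS of RpL7A (125) and cannot be assigned between these neighbours. The genes sno, pcx, amx and shi had none; the strongest region among them was at amx (rank 4147). N, Smr, nej and dx were in the top list of every replicate.

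In sex determination, Sxl, the switch gene that the X dose controls in the early embryo, had 2 peaks, the higher in an intron 1335 bp from its TSS with a signal of 182 (rank 756; ranks 1101, 840 and 485). The splicing factor gene snf had a promoter peak of 94.5, rank 2247, near the lower end of the set, with rank 25358 in replicate 3. The X-signal elements sisA, sc, upd1 and run had none. The dosage compensation genes roX1, roX2 and mof, which encodes the histone acetyltransferase of the complex, were 0 of 3. Their best pooled ranks were 22234 for roX2 and 13339 for mof, and roX1 had no region in the pooled list.

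Among segmentation and dorsoventral genes 3 of 10 had a peak. These were sog, whose product inhibits Dpp (3 peaks, the highest 144, rank 1168), brk, the repressor of Dpp targets (189, rank 701), and fog, which encodes the ligand that drives apical constriction at gastrulation (167, rank 885). The highest peak of each lay in an intron, that of brk in CG1677, and was in the top list of each replicate. The lower of the 2 peaks of fog (116, rank 1621; replicate ranks 2663, 1279 and 2400) and the lowest of sog (90.9, rank 2385) were in 1 top list each; run, btd, gt, oc, vnd, tsg and nullo had none. Of 13 other transcription factor genes, ct (191, rank 688) and Lim1 (199, rank 639) had intron peaks 9237 and 11096 bp from their TSS, and exd, B-H1, B-H2, unc-4, acj6, disco, disco-r, peb, lz, sd and ovo had none. Of 12 signalling genes, Raf had 11 peaks and sgg, the GSK3 kinase of Wingless signalling, had 2, the higher at a promoter (390, rank 139; ranks 149, 121 and 193); the Wingless genes arm and dsh and the JAK/STAT genes upd1, upd2, upd3, hop and dome had none, nor had fu, csw and hep.

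Of 7 Polycomb, trithorax and chromatin genes 4 had a peak. The tandem copies ph-p (1285, 4 peaks) and ph-d (164, rank 929) were followed by fs(1)h, a bromodomain protein gene (128, rank 1415), whose peak had no matching region in replicate 1, and by mxc (92.3). The mxc peak lay 219 bp upstream of the mxc TSS and 131 bp upstream of that of Larp7, and cannot be assigned between them. The genes trr, wds and crm had none. Housekeeping genes had peaks in 6 of 8 cases. The first were the glycolytic gene Gapdh2 (348, rank 182; ranks 453, 178 and 107), Zw, which encodes glucose-6-phosphate dehydrogenase (345; ranks 267, 200 and 162), and the actin gene Act5C (285; ranks 317, 250 and 436). The myosin light chain gene sqh (rank 1962), the GTPase gene Cdc42 (rank 2035) and the chaperone gene Hsc70-3 (rank 2086) were near the end of the set, while Pgd, at pooled rank 2486, lay just outside the set and Polr2A far below it.

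Ribosomal protein genes of the X had a promoter peak in 9 of 14 cases. RpS28b had the highest signal (266, rank 358; ranks 232, 501 and 462), followed by RpS10b (247), RpL22 (220), RpS5a (179), RpL17 (162), RpL37-1 (146), RpL36 (138), RpL7A (125) and RpS15Aa (121). The strongest summit of each lay within 92 bp of the TSS. Replicate 3 gave the lowest rank of the replicates to 5 of the 9, with 5473 for RpS15Aa and 4155 for RpL36. Of the other members, RpS6 (2476) and RpS19a (2827) stood just below the set, RpL35 ranked 3600, and RpS14a and RpS14b, near-identical neighbours that can share reads, were counted for the same region at rank 3509. None of the 8 yolk protein and chorion genes, which are active in adult fat body and ovary, and 1 of 25 chemoreceptor genes had a peak; that of Or9a (107) lay at the promoter of Neb-cGP.

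**Figure D5:**
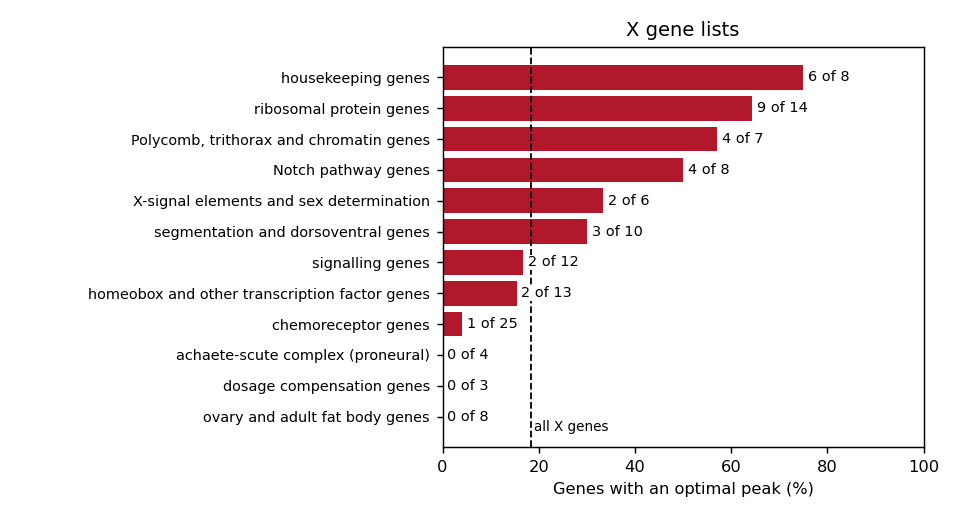
Percentage of the genes of each X list with an optimal summit in the gene or up to 2 kb upstream; labels give genes with a peak of all genes, and the dashed line is the 18.3% of all X genes. Housekeeping genes (6 of 8) and ribosomal protein genes (9 of 14) are highest, and the achaete-scute, dosage compensation and ovary and fat body lists are at 0.

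Motifs were searched at the summits, with the letters on either strand within 100 bp of the summit. They were the promoter elements DRE (TATCGATA) and Motif 1 (GGTCACAC), the E-box CACGTG, the class C site CACGCG that E(spl) and Hairy proteins bind, the E-box CACCTG, the Zelda site CAGGTAG, the GA repeat GAGAGAGA and the CA repeat CACACACA. No motif contains another, although neighbouring sites can overlap, such as those of Motif 1 and the CA repeat, and each was counted once per window. The X examples below show a DRE, a class C site and each repeat, with 50 bp to either side of the summit, on the plus strand of dm6, and the motif in capitals. Each is the highest-signal X peak with a top region in all 3 replicates whose printed window holds the motif and touches no annotated untranslated region, and they were chosen after the values were seen. They lie at chrX:18843511-18843611 (htk promoter, signal 176), chrX:4939931-4940031 (Ptp4E promoter, signal 380; its letters read on the minus strand), chrX:2302291-2302391 (an intron of Raf, signal 182) and chrX:2083971-2084071 (an intron of Unc-76, signal 178; minus strand).
htk: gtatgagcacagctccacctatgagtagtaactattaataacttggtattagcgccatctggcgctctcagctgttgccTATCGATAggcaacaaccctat
Ptp4E: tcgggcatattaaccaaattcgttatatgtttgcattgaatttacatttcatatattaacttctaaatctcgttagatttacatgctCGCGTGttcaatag
Raf, second site: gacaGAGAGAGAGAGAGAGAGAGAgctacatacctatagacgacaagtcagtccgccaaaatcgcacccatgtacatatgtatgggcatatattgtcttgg
Unc-76: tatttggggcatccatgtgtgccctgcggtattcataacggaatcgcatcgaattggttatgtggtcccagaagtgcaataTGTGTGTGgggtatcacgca

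At optimal summits no motif was found to differ between the X and the other arms. By Fisher's exact tests 0 of 8 passed after adjustment, and 0 had an unadjusted p below 0.05 (lowest 0.0737). The GA repeat was in 2.85% of X windows (1.67 to 4.82%), against 1.53% (1.02 to 2.28%), with an adjusted exact p of 0.373. CACCTG was in 4.39%, against 6.58% (adjusted exact p = 0.373), the CA repeat in 5.04%, against 3.66% (0.577), the DRE in 2.41%, against 3.32% (0.577), and the class C site in 3.51%, against 2.93% (0.714). Motif 1 was in 1.54%, against 1.99%, CACGTG in 2.85%, against 3.06%, and the Zelda site in 1.10%, against 0.665%. At these numbers the intervals still allow sizeable differences. In replicates 1, 2 and 3 the GA repeat was in 3.72, 3.88 and 3.02% of X windows, against 1.72, 1.79 and 1.63%. The CA repeat and the Zelda site were also more frequent on the X in every replicate. The DRE and the E-boxes were less frequent in every replicate. For each of these motifs the exact permutation p was 0.25. Motif 1 and the class C site changed sign between replicates. Within 50 bp of the optimal summits the GA difference was -0.00700 percentage points.

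In the weak regions, where numbers are larger, 4 motifs were more frequent on the X. The CA repeat was in 6.62% of X windows, against 4.29% (adjusted exact p = 4.33e-08), the GA repeat in 2.17%, against 1.40% (adjusted p = 0.00235), the DRE in 1.55%, against 0.830% (adjusted p = 4.72e-04), and Motif 1 in 1.36%, against 0.911% (adjusted p = 0.0342). Over tiles of the same length along the whole arms the CA repeat was in 5.77% on the X, against 3.79%, the GA repeat in 1.54%, against 1.05%, and the DRE in 0.706%, against 0.495%. Motif 1 was in 0.486 and 0.416% of tiles, CACGTG in 2.30 and 2.41%, the class C site in 3.99 and 3.59%, CACCTG in 8.11 and 7.75% and the Zelda site in 1.00 and 1.09%. Both repeats and the DRE are thus more frequent in X sequence as a whole. Weak X regions were also more often at promoters (22.6%, against 18.5%), and the part of location in the motif differences of weak regions was not tested. Whether the X difference itself changed between weak and optimal regions was tested by the interaction, and none of the 8 passed after adjustment. The DRE came nearest, with a ratio of odds ratios of 0.383 (unadjusted interval 0.185 to 0.793). The GC content of the windows had a median of 37.8% at X summits, against 37.3%, and of 47.8% at weak X regions, against 48.3%.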

How the data were processed

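Peak lists of 3 biological replicates of anti-GFP ChIP-seq were used. Per the descriptions deposited with the files, the authors called regions against a control, once per replicate and once on all replicates together, and took the optimal set from these by IDR (irreproducible discovery rate). No aligner, caller or IDR threshold is given in the sources used here. The signal and the −log10 q-value of each region are the authors' deposited values, and the deposited summit offset, another column, placed each summit. Depth is unknown.

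Summits were placed on Ensembl release 115 gene models of dm6 (BDGP6) and sequences read from the RefSeq assembly of the same build, after checking that all regions end within their arms. Location classes were assigned in the order promoter, untranslated region, coding exon, intron, intergenic. These classes, TSS positions and nearest genes used protein-coding genes only. A summit at a non-coding gene could thus be counted as intron or intergenic. Adjustment was by Benjamini and Hochberg within a family of tests, at a threshold of 0.05; tests between arms are two-sided Fisher's exact or exact binomial tests, and interactions are Wald tests of a logistic model. Optimal peaks and replicate regions were matched at summits within 200 bp. A replicate's top list is its 2397 highest-signal regions. The genes named are those nearest to the first 20 peaks, all list members, the genes of the densest 100 kb, and others where stated. The members and lists were chosen with earlier results of these data known. Counting, matching and the Fisher's test were tested on simulated data. Alternatives were leaving out each replicate, ranks 1 to 1198 only, other windows, assignments and reference arms, 2R added, dm3, 1 peak per 20 kb, and no peaks in genes of 4 or more peaks. Tools were SciPy 1.17.1, statsmodels 0.14.6, pandas 2.3.3, NumPy 2.4.6 and Matplotlib 3.10.9 in Python 3.11.15.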

Additional observations from a re-analysis of the deposited data

Results flagged for a closer look

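On dm3 the unplaced X heterochromatin sequence, which the comparisons do not use, held 4 regions of the pooled list and 0 of the optimal set. These regions stood out because they lie outside the sequence analysed above; there is no control sample to set them against.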

How the results depend on the processing

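The 12 values that answer a comparison were recomputed under 87 alternatives, and 72 kept their direction and their side of the threshold. The 72 include the number of motifs that passed, which was 0 in every setting and has no direction. They also include the replicate difference of X shares, whose test could not pass in any setting. The cause of the other 15 was not tested. The intron share and the ratio to the weak regions kept direction and side of the threshold under every alternative run for them. These included 1 peak per 20 kb, which was added after seeing the data. The replicate difference of X shares was positive in every setting run for it, from 5.07 to 5.67 points without each replicate and 2.13 points with the 5000 highest regions, but no setting with 2 or 3 replicates could pass the test. Without the peaks in genes of 4 or more peaks, also added after seeing the data, the promoter difference was -4.85 points (adjusted exact p = 0.150). Leaving out each replicate gave ratios to sequence length from 1.07 to 1.12, to TSS positions from 1.09 to 1.14, and a difference in peaks found in both remaining replicates from 1.16 to 4.85 percentage points. In each of these ranges only the highest value, that without replicate 3, passed. These sets hold fewer peaks, and the peaks were still called with all 3 replicates. With 2R added the ratio to TSS positions was 1.11 (adjusted exact p = 0.0181).

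With ranks 1 to 1198 only, which is fewer peaks, the ratio to genes was 1.14 (adjusted exact p = 0.0613), the intergenic difference was -5.77 points (adjusted p = 0.0555) and the difference in genes with a peak was -0.0658 points. That difference was -0.964 points with genes counted by a summit at most 1 kb from a TSS and 1.72 points by nearest TSS. The promoter difference was -5.06 points with the 1 kb window, -7.29 points against 2L and -4.55 points against 3L. Against 3R the intergenic difference was -2.41 points, and against 3L the share in ranks 1 to 1198 differed by 0.00804 points. Of single motifs, which passed no test, the sign turned for CACGTG in the sets without a replicate (from -0.679 to 0.0766 points) and at promoters (0.743), for CACGCG in ranks 1 to 1198 (-0.291) and for GAGAGAGA within 50 bp of the summit (-0.00700). No paired analysis was possible because the replicates form 1 group, with no other group to pair them with. Counts of peaks limit the rarer motifs most; read depth is unknown.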
